A study of Drosophila melanogaster with 5 samples.

Results

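The 51 genes described here are nuclear genes whose mRNA in flight muscle was lower by 2-fold or more in both M1BP RNAi libraries than in any wild type (WT) library. They were chosen by a rule on CPM (the count of a gene divided by the total count of its library, multiplied by 1000000). A nuclear gene entered if it had at least 5 CPM in every WT library and if its larger M1BP RNAi value was at most 0.5 of its smallest WT value. Among them were genes of vitamin B6 salvage (sgll, Pdxk), nucleotide synthesis (Adsl, Ctps, awd), microRNA production (Dcr-1), mitochondrial translation (ArgRS-m, GatA) and electron transport (Cyt-c-p). Of 17494 genes in the counts table, 6076 nuclear genes reached 5 CPM in every WT library, and 65 of these met the ratio (1.07%). The 51 genes are what remained after 14 of these 65, among 17 genes named for description elsewhere, were left out. The mirror rule, a smaller M1BP RNAi value at least 2 times the largest WT value, was met by 75 of the 6076 genes (1.23%). The balance of these counts turned with the scaling, a comparison chosen after the data were seen: 88 genes met the ratio and 55 the mirror rule with totals over nuclear genes, 102 and 28 with DESeq2 size factors, and 102 and 29 with TMM library sizes. Since both M1BP RNAi libraries and all 3 WT libraries chose the genes, the decreases are given as a description, with no test.

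RNA was sequenced from the dorsolongitudinal indirect flight muscles of Drosophila melanogaster pupae aged 48 h after puparium formation (APF). The M1BP RNAi group (n = 2, replicates 2 and 3) expressed a UAS-M1BP RNAi transgene under Mef2-GAL4, a driver active in all muscle cells throughout their development, and the line used was the weaker of a pair, so M1BP was to be reduced and not removed. The WT group (n = 3, replicates 1, 2 and 3) carried Mef2-GAL4 without the RNAi transgene. Each library pooled hand-dissected muscles of several pupae, and the labels gave no batch and no sex. Nothing in the labels says whether libraries of 1 group came from separate crosses, so the p-values below measure only the spread between these samples.

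M1BP, the Motif-1 binding protein, is a zinc finger transcription factor. It binds Motif 1, a core promoter element of many broadly expressed Drosophila genes that lack a TATA box, where RNA polymerase often pauses shortly after starting. Genes with such promoters serve basic cell functions such as metabolism, translation and transport, and many of them start close to a gene on the other strand. Flight muscle at this age is assembling its contractile fibrils and enlarging its mitochondria.

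A promoter sequence is shown for 1 of the 51 genes, CG7506 (FBgn0035805), which the study lists among assembly factors of respiratory complex V. It is printed as an example, and whether the study gives stretches for others of these genes was not fully checked. The study scanned promoters of its oxidative phosphorylation (OXPHOS) genes with the M1BP motif, and the best stretch in the CG7506 promoter lay on the minus strand, the strand of the gene (dm6, chr3L:7641648-7641665, counted along the plus strand on the reading that the scanned window is given from base 0). Capitals mark the 8 bases that align best with GGTCACAC, the core of Motif 1.
CG7506: gtgtgGGCCACACtgcaa
The stretch reads towards the annotated first base of the gene, 7641648, and ends on it. Counted from 1 at the first base of GGTCACAC, the stretch carries T3C. A match of this kind is a description of letters and not evidence of binding. Promoters of the other 50 genes were not analysed here.

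Total counts lay between 46504821 and 57514444 in the M1BP RNAi libraries and between 41676901 and 53556469 in the WT libraries. M1BP itself (FBgn0037621, dm6 3R, 8729790 to 8731698) had 9.75 and 9.98 CPM in the M1BP RNAi libraries, against 12.9, 13.6 and 11.3 CPM in WT. The groups did not overlap, and the mean was 78.4% of the WT mean in CPM. With DESeq2 size factors its log2 fold change was -0.61 (SE 0.136). The mitochondrial genome took 10.8% and 14.6% of counts in M1BP RNAi, against 18.1%, 20.4% and 19.5% in WT. As CPM are shares of 1 total, the other 6025 nuclear genes with at least 5 CPM in every WT library stood at a median of 115.4% of the WT mean, a log2 shift of 0.20 over all 6076 genes. The shift was 0.09 when CPM were taken over nuclear counts, and 0.02 for the median DESeq2 fold change over all genes tested.

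The summed level of 8 flight muscle markers, such as Mhc and Act88F, was 42357 and 46071 CPM in M1BP RNAi and 39459 to 48253 CPM in WT, with none of the 8 called by DESeq2. Markers of other tissues were detected at lower levels, 47.5 CPM or less for 6 neuronal genes in M1BP RNAi and 50.3 CPM or less in WT. Most of this neuronal sum was elav, with 40.3 and 39.2 CPM in M1BP RNAi, against 35.8, 36.9 and 32.2 CPM in WT. Summed haemocyte markers (5 genes) were at 232 and 147 CPM in M1BP RNAi and 82.3 to 153 CPM in WT, and fat body markers (8 genes) at 411 and 365 CPM in M1BP RNAi and 137 to 308 CPM in WT. Epidermis and tendon markers (4 genes) were at 131 and 141 CPM in M1BP RNAi and 129 to 226 CPM in WT. Tracheal markers (4 genes) were at 1006 and 1136 CPM in M1BP RNAi and 1104 to 1664 CPM in WT, with serp called lower. The 19 testis markers stood apart in 1 library, with 174 CPM in M1BP RNAi 2 and 9.29 CPM in M1BP RNAi 3, against 5.73 to 7.79 CPM in WT, and 5 of the 19 were called higher. Among 5 genes that differ between the sexes, lncRNA:roX1, a noncoding RNA of male X chromosome dosage compensation, had 229 and 129 CPM in M1BP RNAi, against 0.279, 101 and 18.6 CPM in WT. The groups did not overlap for lncRNA:roX1, so a fit with it as a covariate cannot fully separate it from the group. The part of these library differences in the values of the 51 genes was not tested. Fewer cells of a type and less RNA per cell cannot be told apart in such bulk samples.

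Together the 51 genes took 1271 and 1175 CPM in M1BP RNAi, against 3761, 3806 and 3919 CPM in WT. Their mean in M1BP RNAi was a median of 32.6% of the WT mean, with a range of 4.07% to 45.7%. As the plot of CPM by library shows, 3 genes were under 10% of the WT mean, 8 genes under 20% and 21 genes under 30%, while 8 were over 40%. Of the 51 genes, 50 are annotated as protein coding and 1 (FBgn0065101) as a small noncoding RNA. The lowest count behind any of these values was 62, for CG15014 in M1BP RNAi 3. With DESeq2 size factors, which remove the shift of CPM, the median log2 fold change of the 51 genes was -1.88 and the smallest decrease -1.40. All 51 genes were called lower by DESeq2 (adjusted p of at most 0.001 and at least 1.5-fold), against 2.98% of 11282 genes tested. The edgeR quasi-likelihood test called 2 of the 51 at the same thresholds and 8 genes over the whole table. At an adjusted p of 0.05 it called all 51, and 813 genes over the whole table. Nothing is read from these counts of the 51, because the rule used the contrast. As edgeR called so few genes at 0.001, its counts of 0 below cannot be read against single genes.

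**Figure D1:**
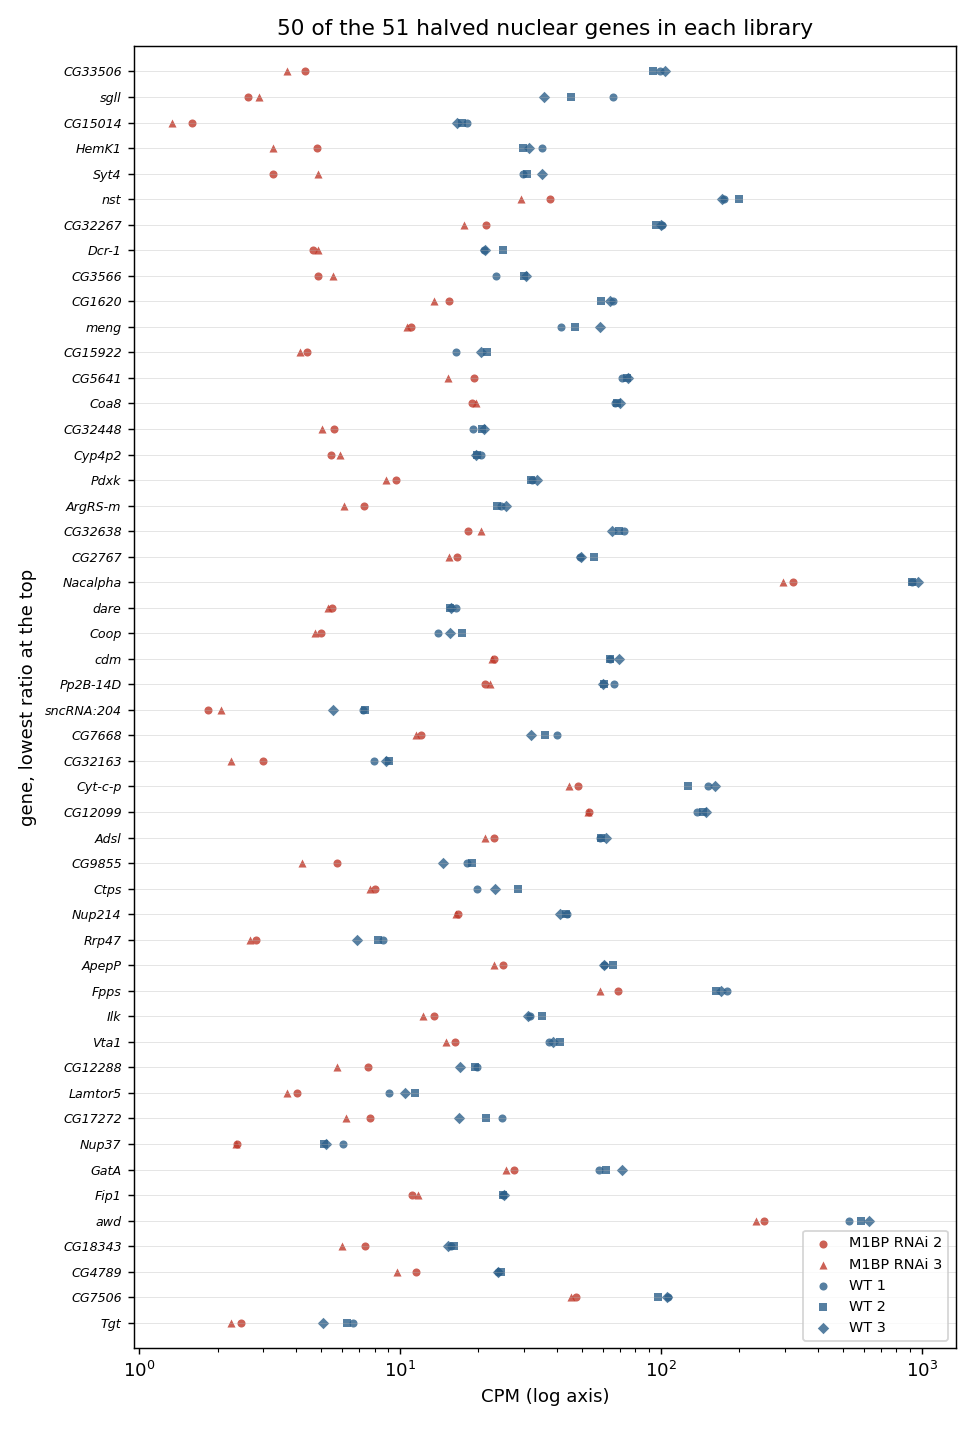
CPM on a log axis for 50 of the 51 genes (rows, ordered by the larger M1BP RNAi value over the smallest WT value) in the 2 M1BP RNAi libraries (red) and the 3 WT libraries (blue), each symbol being 1 library. The gap between red and blue symbols narrows from CG33506 at the top, at 4.07% of the WT mean, to Tgt at the bottom, at 39.5%.

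For most of the 51 genes the M1BP RNAi libraries lay close together, as they did for most other genes. In 41 genes their CPM lay within 1.2-fold of each other (80.4%), against 76.0% of the other 6025 genes and 89.3% of the 75 mirror genes. None of the 51 and none of the 75 mirror genes differed by over 2-fold between the M1BP RNAi libraries, against 111 of the other 6025 genes. The rule limits the larger M1BP RNAi value, and nothing is read from these counts. The value in M1BP RNAi 2 was the higher one in 41 of the 51 genes, with a median ratio to M1BP RNAi 3 of 1.08, the same as the median over the other genes (1.08). The widest ratios were those of HemK1, 1.47-fold higher in M1BP RNAi 2, and Syt4, at 0.672 of its M1BP RNAi 3 level. The coefficient of variation over the WT libraries had a median of 6.95% in the 51 genes and 9.26% in the other genes, and the rule itself favours a small spread. Only sgll, with a coefficient of 31.4%, had WT values over 1.5-fold apart.

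**Figure D2:**
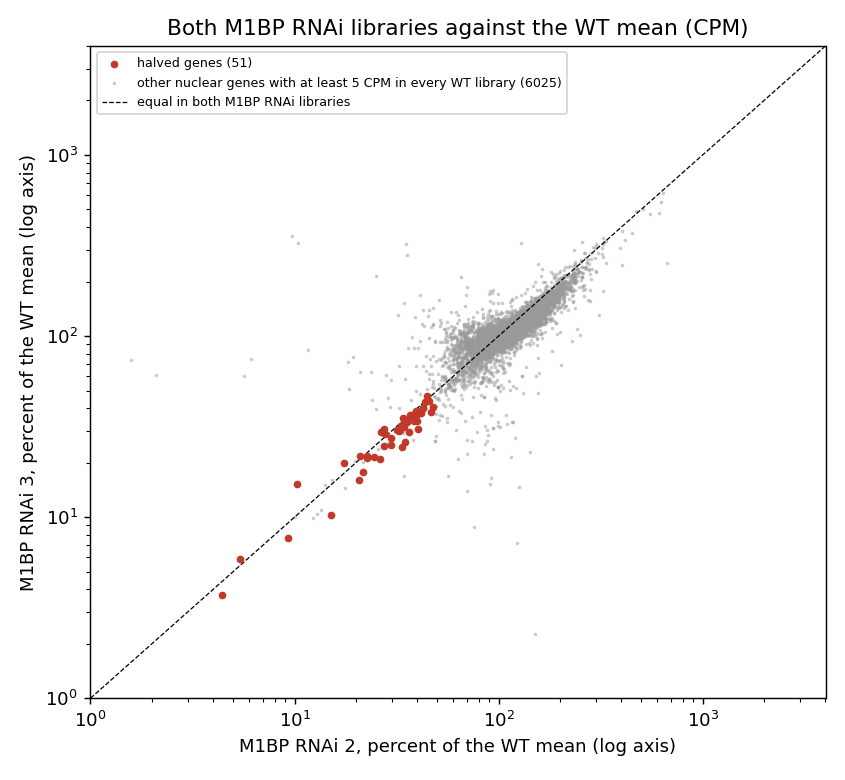
Percent of the WT mean CPM in M1BP RNAi 2 (horizontal) and M1BP RNAi 3 (vertical), both on log axes, for the 51 genes (red) and the other 6025 nuclear genes with at least 5 CPM in every WT library (grey, including the 14 genes left out), each point being 1 gene. The red points lie along the dashed line of equal values, and the grey cloud is centred above 100%.

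The strongest decreases were found in 3 genes. CG33506 (FBgn0053506, 2R, 14857447 to 14858640) had 4.35 and 3.70 CPM in M1BP RNAi libraries 2 and 3, against 99.5, 93.0 and 104 CPM in WT libraries 1, 2 and 3, and values are given in this order of replicates throughout. Its mean was 4.02 ± 0.458 CPM in M1BP RNAi (SD, n = 2) and 98.9 ± 5.61 CPM in WT (SD, n = 3), 24.6-fold lower. The second gene, sgll (FBgn0051472, 3R, 7810532 to 7811912), encodes the pyridoxine 5'-phosphate oxidase, the enzyme that makes the active form of vitamin B6. It had 2.63 and 2.88 CPM in M1BP RNAi, against 65.6, 45.1 and 35.6 CPM in WT, 17.7-fold lower with WT 1 as the highest library. CG15014 (FBgn0035532, 3L, 4321105 to 4322259), a gene of a single exon block, had 1.60 and 1.33 CPM in M1BP RNAi, against 18.1, 17.3 and 16.5 CPM in WT, 11.8-fold lower.

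The next genes in this order held between 12.6% and 23.6% of the WT mean. HemK1, named for the methyltransferase that modifies translation release factors, had 4.80 and 3.27 CPM in M1BP RNAi, against 35.0, 29.6 and 31.2 CPM in WT. Syt4, a synaptotagmin of calcium-regulated vesicle release that acts on the muscle side of the fly neuromuscular junction, had 3.25 and 4.84 CPM in M1BP RNAi, against 29.7, 30.6 and 35.0 CPM in WT. For these 2 genes the M1BP RNAi libraries differed most, in opposite directions. The gap to the lowest WT library was many times wider, and the rule itself requires a gap. The gene nst (nesthocker), which encodes a phosphoacetylglucosamine mutase of amino sugar synthesis, had 37.5 and 29.2 CPM in M1BP RNAi, against 174, 199 and 172 CPM in WT. CG32267 had 21.4 and 17.6 CPM in M1BP RNAi, against 101, 95.8 and 100 CPM in WT. Both are among the 10 most abundant of the 51 genes in WT, so that their decreases of 5.45-fold and 5.09-fold involved many reads. The values of CG3566 were 4.83 and 5.53 CPM in M1BP RNAi, against 23.3, 29.8 and 30.3 CPM in WT. CG1620 stood at 15.4 and 13.6 CPM in M1BP RNAi, against 65.8, 59.1 and 63.9 CPM in WT. The kinase gene meng (meng-po), known for a role in fly memory, had 11.01 and 10.64 CPM in M1BP RNAi, against 41.5, 46.8 and 58.3 CPM in WT, a wider spread in WT than in most of the 51 genes. CG15922 was measured at 4.42 and 4.13 CPM in M1BP RNAi, against 16.4, 21.5 and 20.5 CPM in WT, and CG5641 at 19.3 and 15.4 CPM in M1BP RNAi, against 71.0, 74.5 and 74.7 CPM in WT. No M1BP RNAi value of these genes came near a WT value, which follows from the rule and from the order by its ratio.

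At the other end of the rule, 5 genes lay just inside the ratio of 0.5 and 5 just outside it. Inside were awd (0.474), CG18343 (0.479), CG4789 (0.482), CG7506 (0.483) and Tgt (0.488). Outside were CG1637 (0.501), Etl1 (0.502), Atox1 (0.506), kin17 (0.507) and Dip-C (0.509). Tgt (FBgn0031321, 2L, 1184065 to 1185698), which encodes a queuine tRNA-ribosyltransferase subunit, had 2.47 and 2.26 CPM in M1BP RNAi, against 6.61, 6.26 and 5.06 CPM in WT, and so passed both limits by little. CG1637 had 28.1 and 25.6 CPM in M1BP RNAi, against 63.7, 61.95 and 56.1 CPM in WT, a pattern much like that of the genes inside. CG18343 had 7.35 and 6.00 CPM in M1BP RNAi, against 15.7, 16.1 and 15.3 CPM in WT. CG4789 had 11.5 and 9.72 CPM in M1BP RNAi, against 23.8, 24.4 and 23.9 CPM in WT. The limit thus cuts through a continuous run of genes. Etl1 had 9.25 and 8.95 CPM in M1BP RNAi, against 22.1, 21.7 and 18.4 CPM in WT. The values of kin17 were 6.64 and 5.03 CPM in M1BP RNAi, against 13.5, 13.8 and 13.1 CPM in WT, and those of Dip-C 11.5 and 9.55 CPM in M1BP RNAi, against 23.0, 24.4 and 22.5 CPM in WT.

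Genes of vitamin B6 metabolism formed one group. Pyridoxal phosphate, the active vitamin, is a cofactor of transaminases, decarboxylases and the first enzyme of haem synthesis, and it is made from dietary forms by a kinase and an oxidase. Both salvage genes on the list were among the 51: sgll, described above, and Pdxk, the pyridoxal kinase. Pdxk (FBgn0085484, 3L, 9360316 to 9362042) had 9.65 and 8.88 CPM in M1BP RNAi, against 32.0, 31.9 and 33.6 CPM in WT, 3.51-fold lower. The WT libraries differed less for Pdxk (coefficient of variation 3.03%) than for sgll. No gene was left on this list for a count of other members.

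Nucleotide synthesis was represented by 3 genes. Adsl, the adenylosuccinate lyase that acts in purine synthesis, had 22.9 and 21.2 CPM in M1BP RNAi, against 58.5, 59.0 and 61.9 CPM in WT. Ctps, the CTP synthase known for assembling into filaments in fly cells, had 8.00 and 7.66 CPM in M1BP RNAi, against 19.7, 28.4 and 23.2 CPM in WT. The most abundant of them was awd, the nucleoside diphosphate kinase first known from abnormal wing discs, with 248 and 232 CPM in M1BP RNAi, against 524, 586 and 631 CPM in WT. The 3 genes held 36.8%, 33.0% and 41.3% of the WT mean. Of the 11 other purine and pyrimidine genes tested, none was called lower (0 called, with 6 of the 11 at an unadjusted p under 0.05 in either direction) and 1 was called higher, against 3.78% called higher over all genes. That gene was r-l, the last enzyme of pyrimidine synthesis, with 13.9 and 10.3 CPM in M1BP RNAi, against 4.61, 5.21 and 3.62 CPM in WT (log2 fold change 1.17, SE 0.223, DESeq2 adjusted p 3.39e-06). The edgeR test called 0 of the 11.

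In small RNA production, Dcr-1, the Dicer that cuts microRNA precursors, was among the 51. Dcr-1 (FBgn0039016, 3R, 22734007 to 22741091) had 4.66 and 4.86 CPM in M1BP RNAi, against 21.0, 24.8 and 21.2 CPM in WT, 4.69-fold lower. With 6913 exon bases it was the longest of the 51 genes and had the lowest WT level per kilobase (3.23 CPM per kb). Of 10 other genes of microRNA and small interfering RNA production, 3 were called lower (against 2.98% of all genes) and 0 higher, with a median log2 fold change of -0.09 beside 0.02 over all genes. The first was pasha, the partner of Drosha in the nucleus, with 7.53 and 5.96 CPM in M1BP RNAi, against 14.5, 13.3 and 11.99 CPM in WT (log2 fold change -1.24, SE 0.166, DESeq2 adjusted p 3.44e-12). Dcr-2, the Dicer of small interfering RNAs, had 16.3 and 16.9 CPM in M1BP RNAi, against 21.7, 23.1 and 18.2 CPM in WT (log2 fold change -0.60, SE 0.130, DESeq2 adjusted p 7.12e-05). Hen1, which methylates the ends of small RNAs, had 1.56 and 0.925 CPM in M1BP RNAi, against 2.96, 2.93 and 2.73 CPM in WT (log2 fold change -1.48, SE 0.341, DESeq2 adjusted p 0.000224). In none of the 3 did the groups overlap, but none was called by edgeR, where 0 of the 162 other list genes passed, and none with lncRNA:roX1 as a covariate.

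Mitochondrial functions were spread over several of the 51 genes. On the list of nuclear genes with mitochondrial function that the study used, as held here, stood 14 of the 51 genes (27.5%), against 778 of the 6076 nuclear genes with at least 5 CPM in every WT library (12.8%). The share among all 65 genes that met the ratio was 35.4% (23 genes). By the processes of that list, 4 of the 14 belonged to translation (HemK1, ArgRS-m, GatA, Tgt), and a pair each to oxidative phosphorylation (CG7506, Cyt-c-p), nucleotide metabolism (Adsl, Ctps) and lipid metabolism (CG2767, Fpps). The other 4 were Coa8, dare, CG3566 and CG9855. Of these, CG7506 was also on the OXPHOS list of the study, with 47.2 and 45.5 CPM in M1BP RNAi, against 107, 97.6 and 106 CPM in WT.

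Cytochrome c carries electrons between respiratory complexes III and IV, and its somatic form in the fly is encoded by Cyt-c-p. Cyt-c-p (FBgn0284248, 2L, 16719932 to 16722644) had 48.1 and 44.7 CPM in M1BP RNAi, against 152, 127 and 162 CPM in WT, 3.16-fold lower. Per kilobase of exon it ranked among the 3 most abundant of the 50 protein coding genes in WT, with 68.1 CPM per kb in M1BP RNAi and 215 CPM per kb in WT. Coa8, a factor for cytochrome c oxidase, had 18.9 and 19.6 CPM in M1BP RNAi, against 66.9, 68.1 and 69.9 CPM in WT. None of the 4 other genes on this list was called (0 genes, and 0 called by edgeR). An unadjusted p under 0.05 was found for 3 of the 4, beside 4040 genes over the whole table. Among them, Cyt-c-d, the testis form of cytochrome c, had 6.64 and 0.409 CPM in M1BP RNAi, against 0.236, 0.0240 and 0.205 CPM in WT. Its high library was M1BP RNAi 2, the one with 174 CPM of testis markers. Whether testis RNA contributes to the level of Cyt-c-d was not tested.

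Charging of mitochondrial tRNAs was represented by ArgRS-m, the arginyl-tRNA synthetase of the organelle, and GatA, a subunit of the amidotransferase that makes glutaminyl-tRNA there. ArgRS-m had 7.27 and 6.13 CPM in M1BP RNAi, against 24.5, 23.5 and 25.6 CPM in WT, 3.66-fold lower. GatA (FBgn0260779, 3R, 19026174 to 19028857) had 27.3 and 25.6 CPM in M1BP RNAi, against 58.2, 61.9 and 71.0 CPM in WT, 2.41-fold lower. Of 18 other genes on the list, 1 was called lower (against 2.98% of all genes) and 1 higher (against 3.78%), with a median log2 fold change of 0.11. ProRS-m, the prolyl enzyme, had 20.2 and 18.7 CPM in M1BP RNAi, against 39.6, 34.4 and 34.8 CPM in WT (log2 fold change -1.17, SE 0.134, DESeq2 adjusted p 2.17e-16). AsnRS-m, the asparaginyl enzyme, had 116 and 74.1 CPM in M1BP RNAi, against 43.3, 39.8 and 41.2 CPM in WT (log2 fold change 0.92, SE 0.205, DESeq2 adjusted p 0.000118). The other 16 were not called, and AsnRS-m was no longer called without M1BP RNAi 2, without WT 1, without WT 2 or with lncRNA:roX1 as a covariate.

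Isoprenoid synthesis yields the farnesyl chains of ubiquinone, dolichol and anchored proteins, since flies do not make sterols of their own. Fpps, the farnesyl pyrophosphate synthase (FBgn0025373, 2R, 11305511 to 11307528), had 68.3 and 58.3 CPM in M1BP RNAi, against 179, 162 and 171 CPM in WT, 2.70-fold lower. Among 7 other mevalonate pathway genes, 1 was called lower (against 2.98% of all genes) and 1 higher (against 3.78%). They were the kinases of successive steps: Mvk had 46.0 and 24.8 CPM in M1BP RNAi, against 93.9, 117 and 71.2 CPM in WT (log2 fold change -1.68, SE 0.288, DESeq2 adjusted p 1.54e-07). Pmvk had 14.3 and 15.1 CPM in M1BP RNAi, against 6.72, 6.29 and 5.30 CPM in WT (log2 fold change 1.01, SE 0.172, DESeq2 adjusted p 1.38e-07). It was no longer called in several other fits, among them the fit without WT 2 and the fit with lncRNA:roX1 as a covariate. The gene dare, the adrenodoxin reductase that passes electrons to mitochondrial P450 enzymes of ecdysone synthesis, had 5.51 and 5.31 CPM in M1BP RNAi, against 16.4, 15.6 and 15.6 CPM in WT. Cyp4p2, a cytochrome P450, had 5.44 and 5.91 CPM in M1BP RNAi, against 20.4, 19.8 and 19.7 CPM in WT.

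Transport between nucleus and cytoplasm involved 3 of the 51 genes. Nup214 (FBgn0010660, 2R, 22918937 to 22924742), a nucleoporin of the cytoplasmic face, had 16.7 and 16.4 CPM in M1BP RNAi, against 43.7, 43.3 and 41.1 CPM in WT. Nup37, a part of the outer ring of the pore, had 2.36 and 2.34 CPM in M1BP RNAi, against 6.03, 5.13 and 5.19 CPM in WT, the lowest WT mean of the 51 genes (5.45 CPM). The gene cdm (cadmus), an importin 13, had 22.9 and 22.6 CPM in M1BP RNAi, against 63.9, 63.7 and 68.9 CPM in WT. In these 3 genes the M1BP RNAi libraries were within 1.2-fold of each other. Of 26 other nuclear pore genes, 2 were called lower (against 2.98% of all genes) and 1 higher (against 3.78%), with a median log2 fold change of 0.19. Sec13, shared by the pore and by coated vesicles, had 27 and 26.3 CPM in M1BP RNAi, against 46.2, 45.6 and 45.2 CPM in WT (log2 fold change -1.04, SE 0.111, DESeq2 adjusted p 4.73e-19). The gene mbo, the fly Nup88 and a partner of Nup214 in protein export, had 9.06 and 6.90 CPM in M1BP RNAi, against 12.4, 13.5 and 13.4 CPM in WT (log2 fold change -0.99, SE 0.187, DESeq2 adjusted p 2.57e-06). Aladin had 19.5 and 18.04 CPM in M1BP RNAi, against 9.31, 9.48 and 6.98 CPM in WT (log2 fold change 0.87, SE 0.158, DESeq2 adjusted p 9.38e-07). In several other fits mbo and Aladin were no longer called, among them those without WT 1, without WT 2 and with lncRNA:roX1 as a covariate.

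Adhesion and calcium signalling each held 1 gene. Ilk, the integrin-linked kinase that ties integrins to the actin cytoskeleton at muscle attachments, had 13.5 and 12.3 CPM in M1BP RNAi, against 31.5, 35.2 and 31.0 CPM in WT, 2.52-fold lower. Of 12 other genes of integrin adhesion, 1 was called lower (against 2.98% of all genes). It was Zyx (zyxin), with 37.9 and 34.3 CPM in M1BP RNAi, against 59.6, 61.4 and 57.5 CPM in WT (log2 fold change -0.99, SE 0.0842, DESeq2 adjusted p 1.36e-29). The partners that bind Ilk directly were among the 11 not called. Pp2B-14D, a catalytic subunit of the calcium-dependent phosphatase calcineurin, had 21.3 and 22.1 CPM in M1BP RNAi, against 66.0, 60.8 and 60.1 CPM in WT, 2.87-fold lower. None of the 5 other calcineurin genes was called (0 genes, 0 called by edgeR). An unadjusted p under 0.05 was found for 1 of the 5, beside 4040 genes over the whole table.

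**Figure D3:**
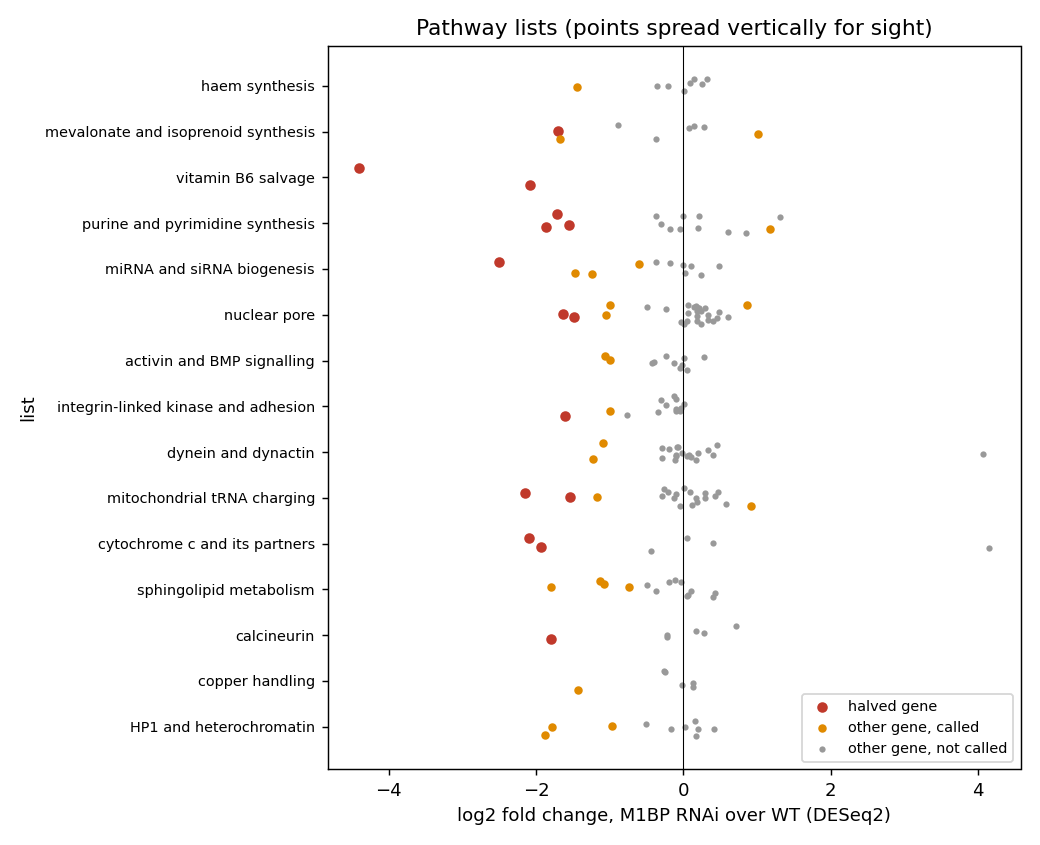
DESeq2 log2 fold change (M1BP RNAi over WT, horizontal) of each gene on 15 pathway lists (rows), with halved genes in red, other called genes in orange and genes not called in grey. Most grey points lie within 1 unit of 0, while sgll lies farthest to the left, at -4.40. Grey points beyond 1 unit to the right include Cyt-c-d at 4.15.

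Protein synthesis and RNA processing supplied both abundant and scarce genes. Nacalpha, a subunit of the nascent polypeptide-associated complex that covers new chains at the ribosome (FBgn0086904, 2R, 12759693 to 12760999), was the most abundant, with 321 and 294 CPM in M1BP RNAi, against 921, 921 and 970 CPM in WT. Alone it made up a large part of the summed level of the 51 genes, and its mean held 32.8% of that in WT. Fip1, a factor of mRNA 3' end processing, had 11.1 and 11.7 CPM in M1BP RNAi, against 24.9, 24.9 and 25.0 CPM in WT, and kept the highest share of the WT mean (45.7%). Rrp47, a cofactor of the nuclear exosome, had 2.80 and 2.67 CPM in M1BP RNAi, against 8.63, 8.25 and 6.83 CPM in WT.

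A further 4 genes have separate known roles. ApepP, an aminopeptidase P, had 24.9 and 23.0 CPM in M1BP RNAi, against 60.8, 65.5 and 60.4 CPM in WT. Vta1, a cofactor of the Vps4 ATPase in sorting at endosomes, had 16.2 and 14.97 CPM in M1BP RNAi, against 37.3, 41.0 and 38.6 CPM in WT. Lamtor5, a subunit of the Ragulator complex on lysosomes, had 4.03 and 3.70 CPM in M1BP RNAi, against 9.10, 11.4 and 10.4 CPM in WT. Coop, a corepressor in Wnt signalling, had 4.97 and 4.73 CPM in M1BP RNAi, against 13.9, 17.3 and 15.6 CPM in WT. In each of these the lowest WT library was more than 2-fold above the higher M1BP RNAi library, as the rule requires.

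Of the genes known only by number, CG12099 was the most abundant, with 53.1 and 52.6 CPM in M1BP RNAi, against 137, 145 and 149 CPM in WT. The remaining 8 such genes (CG32448, CG32638, CG2767, CG7668, CG32163, CG9855, CG12288 and CG17272) held between 26.2% and 35.3% of the WT mean. CG32163 was the scarcest of them, with 2.99 and 2.26 CPM in M1BP RNAi, against 7.94, 9.12 and 8.85 CPM in WT. CG17272 had the widest WT spread, with 7.65 and 6.21 CPM in M1BP RNAi, against 24.6, 21.4 and 16.9 CPM in WT.

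Some values may be shared with an overlapping gene, since the counting was not stated to use strand. Exon bases were shared with another gene by 28 of the 51 genes, with a gene on the opposite strand in 26 of them, and over 10% of the exon bases were shared in 13. The small noncoding RNA gene FBgn0065101 lies wholly within exons of CG32638 (35 bases, same strand), so its 1.84 and 2.06 CPM in M1BP RNAi, against 7.25, 7.34 and 5.56 CPM in WT, cannot be told apart from reads of that gene. CG32638 had 18.2 and 20.4 CPM in M1BP RNAi, against 72.1, 69.3 and 64.8 CPM in WT. CG9855 shares 80.4% of its exon bases with the antisense gene asRNA:CR45999, and CG32163 shares 58.0% with asRNA:CR45895. Both antisense genes had higher means in M1BP RNAi, at 2.09 and 1.52 CPM, than in WT, at 0.996 and 0.224 CPM. The means of CG9855 and CG32163 in WT were 17.2 and 8.64 CPM, well above those of the antisense genes. How far reads were shared in these pairs was not tested. The values of FBgn0065101 remain uncertain, as its reads cannot be told apart from those of CG32638.

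Some properties of the 51 genes were not used by the rule. Their exon length had a median of 1566 bases, against 2409 bases in the other 6025 genes, and the span from first to last base a median of 1754 against 3431 bases. The number of separate exon blocks had a median of 3 against 4, and 7 of the 51 genes (13.7%) had a single block, against 7.25% of the others. The WT level, by contrast, is used by the rule for its minimum and its ratio. Its median was alike in CPM, at 32.5 in the 51 genes and 31.2 in the others, and higher per kilobase, at 23.3 against 11.8 CPM per kb. The genes were found on 3R (16), 3L (12), 2R (9), X (8) and 2L (6), and on the small chromosome 4 in 0 of 64 genes with at least 5 CPM in every WT library. These are descriptions, with no test, and the 14 genes left out are among the others.

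**Figure D4:**
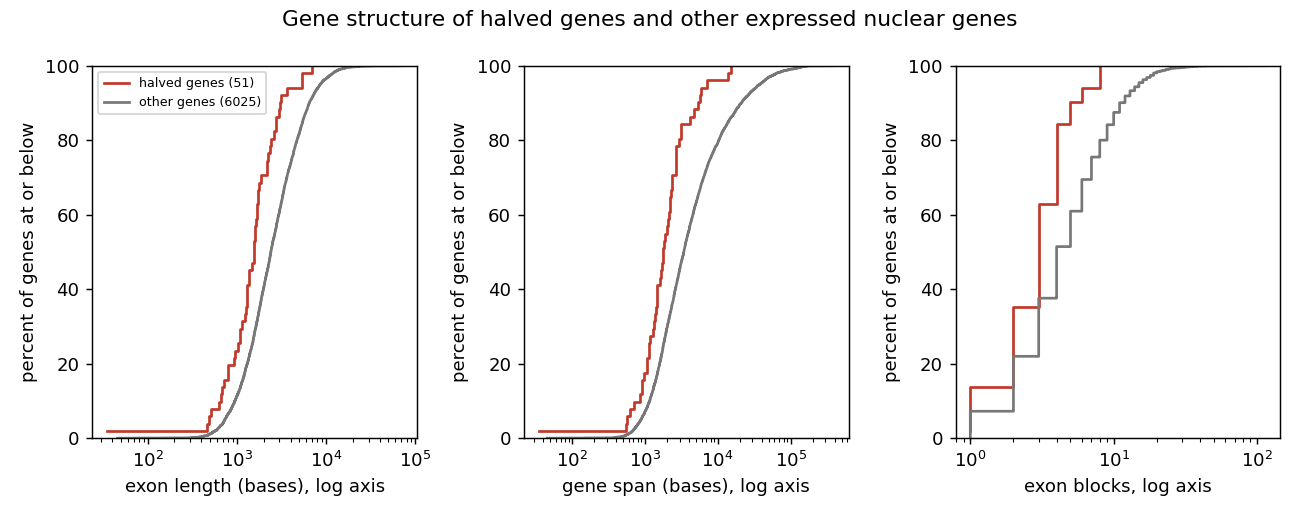
Cumulative percent of genes (vertical) at or below a given exon length, gene span or number of exon blocks (horizontal, log axes) for the 51 genes (red) and the other 6025 nuclear genes with at least 5 CPM in every WT library (grey). The red curves lie to the left of the grey ones, with medians of 1566 against 2409 exon bases and 1754 against 3431 bases of span.

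Genes that start back to back can share a promoter region, so the neighbours of the 51 genes were examined. A neighbour was a gene on the opposite strand whose first base lay within 1000 bases of that of a halved gene, and none of those found met the ratio itself. An opposite start this close was found for 23 of the 51 genes (45.1%), against 54.5% of the other 6025 genes and 57.3% of the mirror genes. The 23 genes had 26 different neighbours, of which 23 were tested by DESeq2. Their median log2 fold change was 0.03, beside 0.02 over all genes tested, and 12 of the 23 were above 0. Of the 23 neighbours, 3 were called lower (13.0%, against 2.98% of all genes) and 1 higher (4.35%, against 3.78%). The edgeR test called 0 of the 23, of which 14 had an unadjusted p under 0.05 in DESeq2. Such a p was common, as 4040 genes had it over the whole table, where 11282 genes were tested. Without M1BP RNAi 2 the number of neighbours called was 2, with CG7970 and asRNA:CR45895 no longer called, and asRNA:CR45895 was called in none of the 5 fits that left out 1 library.

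The 3 lower neighbours started 45, 74 and 150 bases from their partner. CG5126 (2L, 1182297 to 1184020), which starts 45 bases from Tgt, had 3.62 and 3.61 CPM in M1BP RNAi, against 8.32, 9.48 and 6.498 CPM in WT (log2 fold change -1.42, SE 0.213, DESeq2 adjusted p 9.94e-10). P5cr, the last enzyme of proline synthesis (3R, 19028931 to 19030159), which starts 74 bases from GatA, had 20.5 and 19.1 CPM in M1BP RNAi, against 34.8, 33.1 and 33.1 CPM in WT (log2 fold change -1.03, SE 0.116, DESeq2 adjusted p 4.20e-17). CG7970 (3L, 1652750 to 1654238), whose first bases overlap those of Vta1, had 13.2 and 14.1 CPM in M1BP RNAi, against 21.9, 22.1 and 18.6 CPM in WT (log2 fold change -0.87, SE 0.133, DESeq2 adjusted p 2.33e-09). The groups did not overlap for these 3 neighbours, while for their partners the rule itself requires this. With lncRNA:roX1 as a covariate, P5cr was still called and CG5126 and CG7970 were not. CG7970 and Vta1 share exon bases, so reads may be shared between them.

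In other close pairs the neighbour was not called. Trmt112, an activator of RNA methyltransferases, starts 62 bases from Ilk and had 7.51 and 7.05 CPM in M1BP RNAi, against 4.70, 4.73 and 3.81 CPM in WT (log2 fold change 0.46, SE 0.178, DESeq2 adjusted p 0.0408, not called). RpS27, a ribosomal protein gene 144 bases from Nup37, had 602 and 566 CPM in M1BP RNAi, against 570, 629 and 643 CPM in WT, so its groups overlapped. Syx8, a syntaxin gene 100 bases from CG32163, had 4.69 and 3.83 CPM in M1BP RNAi, against 3.88, 4.82 and 4.03 CPM in WT, likewise with overlap. ReepA, 365 bases from Nup214, had 813 and 719 CPM in M1BP RNAi, against 460, 567 and 523 CPM in WT (log2 fold change 0.30, SE 0.132, DESeq2 adjusted p 0.0817, not called). CG6985, 59 bases from Dcr-1, was scarce, with 0.574 and 0.215 CPM in M1BP RNAi, against 0.944, 1.37 and 1.40 CPM in WT (log2 fold change -1.93, SE 0.634, DESeq2 adjusted p 0.0141, not called). These 5 pairs were picked with their values in view. The 1 higher neighbour was asRNA:CR45895, whose exons overlap CG32163, with 1.79 and 1.25 CPM in M1BP RNAi, against 0.236, 0.288 and 0.149 CPM in WT (log2 fold change 2.51, SE 0.582, DESeq2 adjusted p 0.000233).

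**Figure D5:**
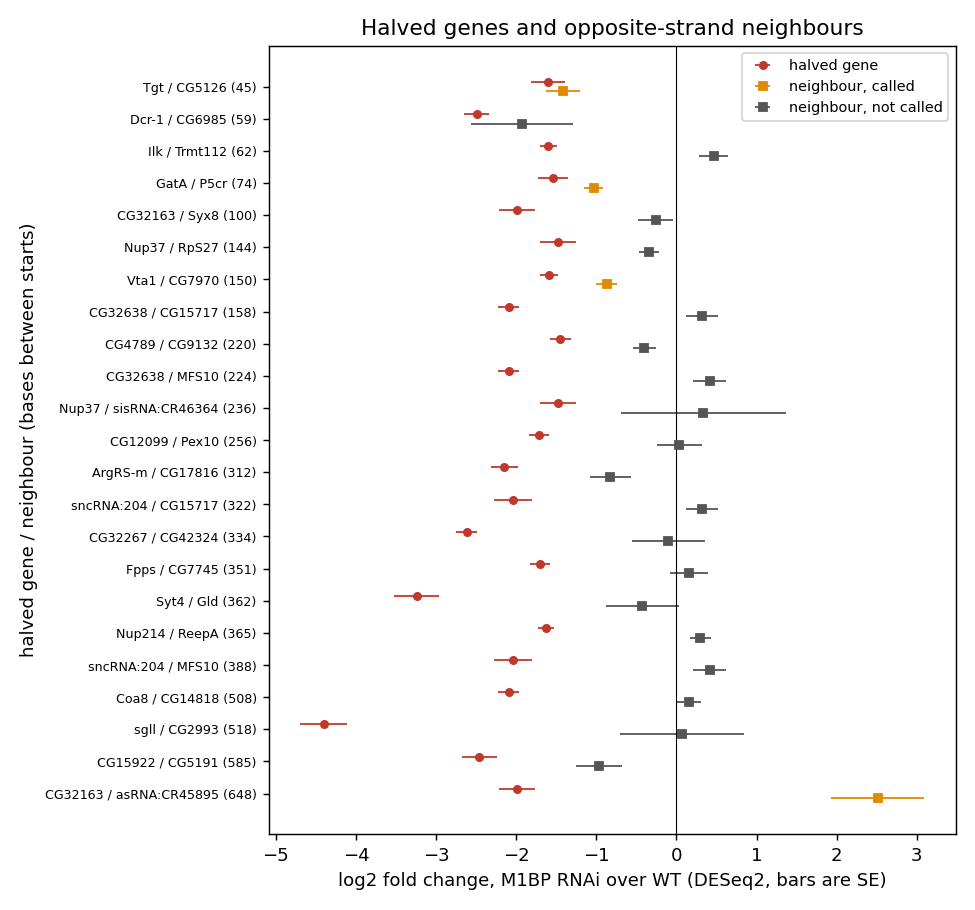
DESeq2 log2 fold change with its SE (M1BP RNAi over WT, horizontal) for halved genes (red) and tested opposite-strand neighbours (squares, orange if called, grey if not), one pair per row with the bases between their starts in brackets, closest at the top. The neighbours CG5126, P5cr and CG7970 lie left of 0 like their partners, while Trmt112 lies to the right, at 0.46.

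There were 6 lists that held none of the 51 genes and are given for the other genes of those pathways. Their counts stand against 2.98% of all genes called lower. As these lists were drawn up with called genes of this comparison already known, the counts are not evidence about a pathway. In haem synthesis, 1 of 8 genes was called lower, Alas, the rate-limiting enzyme, which needs pyridoxal phosphate, with 82.6 and 82.4 CPM in M1BP RNAi, against 193, 158 and 204.9 CPM in WT (log2 fold change -1.44, SE 0.198, DESeq2 adjusted p 1.53e-11). In activin and BMP signalling, 2 of 11 were called lower. The receptor babo had 25.3 and 27.9 CPM in M1BP RNAi, against 45.8, 49.6 and 44.0 CPM in WT (log2 fold change -1.07), and its effector Smox had 59.6 and 56.3 CPM in M1BP RNAi, against 99.2, 101 and 88.5 CPM in WT (log2 fold change -0.998). In dynein and dynactin, 2 of 20 were called lower. The light chain Dlc90F had 21.2 and 20.6 CPM in M1BP RNAi, against 41.2, 41.7 and 38.5 CPM in WT (log2 fold change -1.22), and DCTN2-p50 had 22.9 and 24.1 CPM in M1BP RNAi, against 41.7, 43.3 and 40.1 CPM in WT (log2 fold change -1.09).

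In sphingolipid metabolism, 4 of 14 were called lower (against 2.98% of all genes), with log2 fold changes of -1.79 for ORMDL, -1.13 for nSMase, -1.08 for egh and -0.74 for Sk2. ORMDL, which restrains the first step of the pathway, had 1.44 and 1.10 CPM in M1BP RNAi, against 3.88, 4.37 and 2.82 CPM in WT. For nSMase, a sphingomyelinase, the values were 6.35 and 5.35 CPM in M1BP RNAi, against 9.85, 12.7 and 9.45 CPM in WT. For egh they were 12.3 and 14 CPM in M1BP RNAi, against 23.2, 24.7 and 21.4 CPM in WT. The smallest of these changes was that of Sk2, a sphingosine kinase, with 8.71 and 8.41 CPM in M1BP RNAi, against 12.3, 13.6 and 9.97 CPM in WT. None of the 4 was called with lncRNA:roX1 as a covariate. In copper handling, 1 of 6 was called lower, the chaperone Atox1, just outside the rule, with 8.73 and 10.1 CPM in M1BP RNAi, against 21.3, 22.1 and 19.96 CPM in WT (log2 fold change -1.43). Among genes of HP1 and heterochromatin, 3 of 10 were called lower. Kdm4A, a histone demethylase, had 2.10 and 1.63 CPM in M1BP RNAi, against 6.01, 6.48 and 4.69 CPM in WT (log2 fold change -1.87). Su(var)2-HP2, a partner of HP1, had 5.62 and 10.4 CPM in M1BP RNAi, against 21.1, 28.9 and 20.2 CPM in WT (log2 fold change -1.78), and HP1c had 7.79 and 6.28 CPM in M1BP RNAi, against 10.8, 12.3 and 11.2 CPM in WT (log2 fold change -0.97). Adjusted p-values of these genes by DESeq2 lay at or below 6.10e-05. No gene of the 6 lists was called higher, and none was called by edgeR.

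Over all lists, 162 genes other than the 51 were tested, of which 21 were called lower (13.0%, against 2.98% of all genes) and 4 higher (2.47%, against 3.78%). Their median log2 fold change was 0.01, beside 0.02 over all genes tested. The 25 calls became 16 without M1BP RNAi 2, all of them lower, and likewise 16 without WT 2. The 4 genes called higher in the fit to all libraries were r-l, AsnRS-m, Pmvk and Aladin. Of the 29 called neighbours and list genes together, 15 were called in each of the 5 fits that left out 1 library. The 14 that were not were r-l, mbo, Su(var)2-HP2, Aladin, Pmvk, Hen1, AsnRS-m, Dcr-2, CG7970, nSMase, ORMDL, HP1c, Sk2 and asRNA:CR45895. The number that lost the call was 11 without M1BP RNAi 2, 10 without M1BP RNAi 3, 9 without WT 1, 11 without WT 2 and 4 without WT 3. With lncRNA:roX1 as a covariate 18 of the 29 were not called, which were these 14 and egh, CG5126, Kdm4A and pasha. The covariate itself differed between the groups, so these losses cannot be told apart from a weaker estimate of the group effect. The lists were drawn up with called genes of this comparison already known, so the shares called are not independent evidence of a direction.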

How the data were processed

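Reads of 5 libraries (M1BP RNAi replicates 2 and 3, WT replicates 1 to 3) were processed by the authors, who deposited whole-number counts per gene over exons, with exon length. The submitters' processing notes name the dm6 build, bcl2fastq 2.17.1.14, Subread 2.0.3, featureCounts and DESeq2. Whether counting used strand is not given in the sources used here. The labels and the paper name different stranded mRNA kits. A second deposited table, holding the authors' own fold changes and p-values, was not used.

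CPM were computed from the deposited counts over the whole library total (41676901 to 57514444 counts), and members were found by the rule given in the report. The members and all lists were chosen with earlier results of these data known. Values in every library are given for the 12 members with the lowest ratio, the 10 most abundant in WT, members on a list, the 5 members and 5 genes closest to the limit, and called neighbours and list genes. Other members were named too, except 1 that is not reported here.

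DESeq2 1.42.0 (R 4.3.3, Wald test, default settings, no covariate) was fitted to all genes of all 5 libraries, and p-values were adjusted by Benjamini-Hochberg over 11282 genes. Following the study's methods, a call needed an adjusted p no higher than 0.001 together with a change of 1.5-fold or more. Other settings tried were TMM factors, the quasi-likelihood test of edgeR 4.0.16, a count filter, independent filtering off, an adjusted p of 0.05, the replicate number as a block, lncRNA:roX1 as a covariate, other scalings and limits of the rule, and each library left out. The fits were tested on simulated data. The supplied annotation (Ensembl, BDGP6) held 17358 of the 17494 gene identifiers, 17230 with the same start and end. Coordinates are those of the counts table, counted from 1. Promoter motifs were not analysed here beyond the 1 stretch shown, and libraries hold reads without molecular identifiers, so counts carry more than counting error.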

Additional observations from a re-analysis of the deposited data

How the results depend on the processing

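The number of genes meeting the rule moved with its limits. It was 86 with DESeq2 size factors and 86 with TMM library sizes, 32 at a ratio of 0.4, 80 at 0.6, and 54 to 84 when 1 library was left out, the highest without WT 3. Leaving out a library or raising the ratio can only add genes to the 51, so these counts say nothing about stability. With nuclear totals the count was 72, with a WT minimum of 1 CPM 66 and of 10 CPM 45.

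Calls across the table (762) fell to 8 with edgeR, 315 with the replicate block and 283 with the lncRNA:roX1 covariate. They numbered 1799 at an adjusted p of 0.05, and 319 to 937 when 1 library was left out, lowest without M1BP RNAi 2 and highest without M1BP RNAi 3, with 491 without WT 2. Of neighbours (4 called), 0 were called with edgeR, 0 with the replicate block, 1 with the lncRNA:roX1 covariate, 8 at 0.05 and 2 to 4 with 1 library left out. Of other list genes (25 called), 0 were called with edgeR, 11 with the block, 11 with the covariate and 16 to 24 with 1 library left out. M1BP RNAi and WT share the replicate numbers 2 and 3. Deviations of same-numbered libraries from their group means had correlations of -0.338 and -0.0876, which gave no sign of pairing by number. With 2 M1BP RNAi libraries, the deviations of 1 mirror those of the other, so these correlations cannot decide whether the numbers pair the samples. With the replicate block 18 of the 29 named neighbours and list genes were not called, among them P5cr, CG5126, CG7970, pasha, egh and Kdm4A. With TMM factors, 1 of the 29 (Dcr-2) was no longer called, and no direction was reversed. The causes were not tested. A fit without an M1BP RNAi library leaves 1, which is assumed to vary like the WT libraries. The planned scan of all promoters for Motif 1 and its 4 alternatives were not run, for want of promoter sequence here.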
